A study of Mus musculus with 6 samples.

Results

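The Indian hedgehog pathway was represented by 9 genes, taken by symbol from the 23420 genes of the count tables: the ligand *Ihh*, the receptor *Ptch1*, the signal transducer *Smo*, the transcription factors *Gli1*, *Gli2* and *Gli3*, the inhibitors *Hhip* and *Sufu*, and *Nr2f2*, which encodes the stromal transcription factor COUP-TFII. RNA was sequenced from the luminal layer of the uterus, cut out by laser microdissection, and from blastocysts flushed from the uterine horns of mice on the evening of pregnancy day 4 (8 pm), before attachment. The luminal groups were *Lif*-floxed/floxed females given PBS (control), *Lif*-floxed/floxed *Ltf*-Cre/+ females given PBS (*Lif* eKO), and *Lif*-floxed/floxed *Ltf*-Cre/+ females injected with rLif, the recombinant protein, in doses of 20 µg per head (10 am and 6 pm) and dissected 2 h after the second. The blastocysts were labelled *Lif*-floxed/+ in all 3 groups and were grouped by the uterus they came from, so the embryos carried a floxed allele everywhere. The *Ltf* promoter directs Cre to the uterine epithelium and not to the stroma. RNA of several animals, or several blastocysts, was pooled into 1 library per group, so no difference below has a replicate check and no p-value is given.

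Hedgehog ligands bind Ptch1, which otherwise holds Smo in check, and active Smo lets the Gli proteins switch on their targets, among them *Gli1*, *Ptch1* and *Hhip* themselves. In the uterus, Ihh is made by the epithelium under progesterone and its receptor, and acts on the stroma beneath. There Nr2f2 is induced, restrains estrogen receptor activity in the epithelium and is needed for attachment and decidualization. The question put to the counts was how the members of this epithelium-to-stroma pathway differed when epithelial *Lif* was missing and when Lif was supplied by injection.

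The promoters of *Ihh* and *Nr2f2* are shown because the luminal results turn on these members, the ligand and its stromal target, and because their start regions differ in make-up. Each is the RefSeq window (GRCm38.p6) of 250 bases before the gene's start, read 5′ to 3′ on the gene's own strand, with every CpG in capitals. The *Ihh* window lies at chr1:74951673-74951922 on the minus strand and the *Nr2f2* window at chr7:70366747-70366996 on the minus strand.
Ihh: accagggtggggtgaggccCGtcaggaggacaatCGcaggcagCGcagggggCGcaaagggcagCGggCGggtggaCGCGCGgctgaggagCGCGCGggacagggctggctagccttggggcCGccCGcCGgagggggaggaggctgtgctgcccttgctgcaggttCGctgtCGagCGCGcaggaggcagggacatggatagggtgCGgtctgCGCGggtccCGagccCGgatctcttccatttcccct
Nr2f2: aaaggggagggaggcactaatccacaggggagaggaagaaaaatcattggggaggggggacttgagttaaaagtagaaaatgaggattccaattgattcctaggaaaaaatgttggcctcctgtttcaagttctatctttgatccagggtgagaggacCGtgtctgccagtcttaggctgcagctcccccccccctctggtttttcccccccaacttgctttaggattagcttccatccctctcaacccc
The *Ihh* window held 24 CpG and 72% G or C, and 88.0% of all promoter windows held fewer CpG. The *Nr2f2* window held 1 CpG and 50% G or C, and 7.87% of windows held fewer, against a median of 6 CpG over all windows. A window was found for 8 of the 9 members (*Gli1* had no entry). The Gli recognition sequence GACCACCCA, searched on both strands, was in 0 of these 8 windows and in 0.225% of all 32851 windows. The STAT recognition sequence TTCNNNGAA, likewise searched on both strands, was in 0 of the 8 and in 7.02% of all windows. These counts describe the letters of the windows only.

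The 6 libraries held between 18996158 and 28460465 counts each. The targeted gene *Lif* went against the luminal labels, with no counts (0) for the floxed females, 28 for *Lif* eKO females and 0 for those given rLif, whereas the blastocyst libraries had 1447, 1736 and 1250. The luminal libraries are therefore named by their labels throughout (labelled control, labelled eKO, and rLif for that labelled eKO with rLif), and every direction drawn from them rests on those labels. *Lif* is known at this stage as a product of the glands, whose markers were low in these libraries, so its few counts are a weak check. The epithelial keratins and stromal collagens were present in all 3 luminal libraries, which also carried markers of other cells: the summed level of 8 stroma markers was 729, 1156 and 768 CPM (counts scaled to library size) in the labelled control, labelled eKO and rLif libraries, and that of 8 luminal epithelium markers was 5192, 7878 and 5533 CPM. The other marker sums in these libraries were 8.44, 5.57 and 19.9 CPM for glandular epithelium, 70.4, 50.5 and 31.4 for smooth muscle, 45.9, 66.4 and 91.2 for endothelium, and 801, 665 and 641 for immune cells. Of the 12 blastocyst markers, *Pou5f1*, *Nanog* and *Gata4* were at 0 in all luminal libraries. *Cdx2* (0, 15 and 0 counts), *Gata6* (3, 21 and 3) and *Sox2* (8, 19 and 0) were highest in the labelled eKO library, as was *Lif*. Other markers of these lists were lowest there: *Tfap2c* (124, 7 and 107), *Gata3* (22, 4 and 11), *Sox7* (1798, 1375 and 1958) and *Dab2* (485, 356 and 694). In CPM, *Eomes* (65, 60 and 47 counts) and *Elf5* (75, 76 and 5 counts) were neither highest nor lowest there. The sums of these lists were 11.3, 5.64 and 6.53 CPM for trophectoderm, 0.317, 0.662 and 0 for inner cell mass, and 90.5, 61.0 and 102 for primitive endoderm. A ratio of 2 libraries is given with its exact 95% Clopper-Pearson interval, and a gene was called when that whole interval was above a log2 ratio of 1 or below -1. These intervals cover counting error only. The 3 ratios of a tissue share libraries and are not independent of each other.

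*Ihh* (chromosome 1, 74945318 to 74951651, minus strand, exons of 2444 bases, mm10) was by far the most abundant member of the pathway in the luminal layer. It had 18313 counts in the labelled control, 4493 in the labelled eKO library and 32353 in the rLif library. Per length these were 297, 64.0 and 508 RPKM (counts scaled to gene length and library size), ranks 316, 1566 and 234 among the 15694 genes with at least 10 counts. The labelled eKO library was lowest and the rLif library highest, above the labelled control as well. *Ihh* fell by 2.21 on the log2 scale in the labelled eKO library against the labelled control (95% interval -2.26 to -2.17), a 4.64-fold difference. It rose by 2.99 in the rLif library against the labelled eKO library (2.94 to 3.03), a 7.94-fold difference. Against the labelled control, the rLif library was 0.78 higher (0.75 to 0.80), which did not reach the 2-fold limit. *Ihh* made up 85.9% of all member counts in the labelled control, 44.1% in the labelled eKO library and 90.1% in the rLif library. In such bulk samples, fewer cells of a type and less RNA per cell cannot be told apart.

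**Figure D1:**
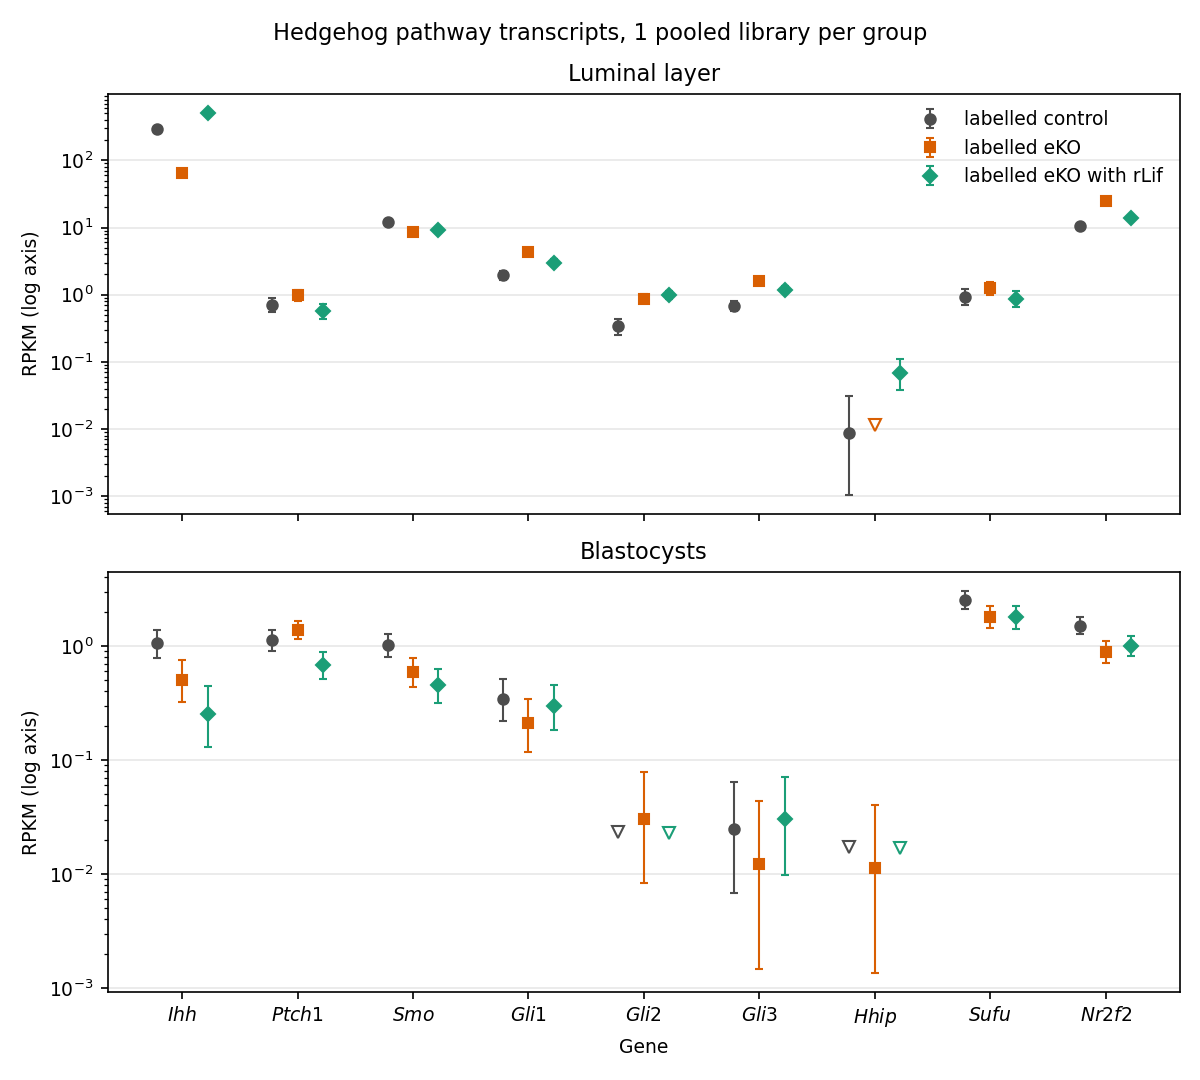
Levels of the 9 members in the luminal layer (top) and blastocysts (bottom), in RPKM on a log axis, with 1 point per pooled library and exact 95% Poisson intervals for counting error. Open triangles mark the level of 3 counts where a library had 0. Luminal *Ihh* was 297, 64.0 and 508 RPKM in the labelled control, labelled eKO and rLif libraries, far above the other members, while in blastocysts every member was below 3 RPKM.

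The genes whose pattern over the 3 luminal libraries was most like that of *Ihh* were *Il13ra1*, *Prss22*, *Flot2*, *Prss23* and *Hspb6*. Likeness was the root mean square difference in log2(CPM + 2), centred on each gene's mean, and 8923 genes with a mean of at least 10 CPM were compared. The difference was 0.0375 for *Il13ra1*, the interleukin-13 receptor subunit with 2118, 488 and 3602 counts, and 0.0378 for the serine protease gene *Prss22*, with 856, 157 and 1572 counts. It was 0.0762 for the membrane scaffold gene *Flot2*, 0.0781 for the serine protease gene *Prss23* and 0.0998 for the small heat shock protein gene *Hspb6*. Over only 3 libraries this is a description of 3 values per gene.

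*Ptch1* (chromosome 13, 63511533 to 63565520, minus strand), the receptor and itself a hedgehog target, was low in the luminal layer, with 77 counts in the labelled control, 121 in the labelled eKO library and 63 in the rLif library (0.708, 0.979 and 0.562 RPKM). Its log2 ratio was 0.47 in the labelled eKO library against the labelled control (0.04 to 0.90) and -0.80 in the rLif library against the labelled eKO library (-1.26 to -0.35). *Ptch1* thus had its highest level where *Ihh* had its lowest, but neither *Ptch1* difference reached the limit, the rLif library and the labelled control did not differ beyond counting error (-0.33, -0.84 to 0.17), and the first difference changed sign under the marker scalings given further on. *Smo* (chromosome 6, 29735497 to 29761366, plus strand), the transducer that Ptch1 restrains, had 1197, 991 and 954 counts (11.9, 8.68 and 9.21 RPKM) in the labelled control, labelled eKO and rLif libraries. It was highest in the labelled control, its log2 ratio being -0.46 in the labelled eKO library (-0.58 to -0.34), and the labelled eKO and rLif libraries did not differ beyond counting error (0.09, -0.04 to 0.22).

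The Gli transcription factors were all higher in the labelled eKO library than in the labelled control, by values whose intervals just crossed the 2-fold limit. *Gli1* (chromosome 10, 127329882 to 127341579, minus strand), the activator that hedgehog signalling induces, had 179, 452 and 285 counts in the labelled control, labelled eKO and rLif libraries (1.94, 4.30 and 2.99 RPKM). Its log2 ratio was 1.15 in the labelled eKO library against the labelled control (0.90 to 1.41) and -0.52 in the rLif library against the labelled eKO library (-0.74 to -0.31). *Gli1* shares 62 of its 3662 exon bases with *Arhgap9* on the opposite strand, which had 64, 20 and 40 counts in these libraries, and without a stated strand setting reads of the shared bases cannot be told apart.

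*Gli3* (chromosome 13, 15463723 to 15730025, plus strand), which acts mostly as the repressor, had 144, 387 and 260 counts (0.677, 1.60 and 1.19 RPKM). Its log2 ratio was 1.24 in the labelled eKO library against the labelled control (0.96 to 1.53) and -0.43 in the rLif library against the labelled eKO library (-0.66 to -0.20). *Gli1* and *Gli3* thus had their highest level in the labelled eKO library and a middle level in the rLif library, an order that did not hold when stroma markers set the library size (0.07 and 0.16 for rLif against labelled eKO). *Gli2* (chromosome 1, 118834061 to 119053619, minus strand), the main primary activator, did not follow that order, with 57, 167 and 173 counts (0.337, 0.867 and 0.991 RPKM). It was 1.36 higher in the labelled eKO library than in the labelled control (0.92 to 1.83), and its log2 ratio was 0.19 in the rLif library against the labelled eKO library (-0.12 to 0.51), a difference within counting error. Only against the labelled control did the rLif library pass the limit, where *Gli2* rose by 1.56 (1.12 to 2.02). Under scaling to total counts this value was 1.38 (0.94 to 1.84) and was not called.

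Of the inhibitors, *Hhip* was near the bottom of the luminal range, and *Sufu* was above 25.7%, 29.8% and 25.9% of the luminal genes per length in the labelled control, labelled eKO and rLif libraries. *Hhip* (chromosome 8, 79965851 to 80058008, minus strand), a membrane protein that binds and sequesters hedgehog ligands and is a target of the pathway, had 2 counts in the labelled control, 0 in the labelled eKO library and 16 in the rLif library. The rLif library was thus at least 5.88-fold higher than the labelled eKO library, taking 3 counts as the floor for the latter. This difference was called, but the same 16 counts also carried *Hhip* past the minimum for summed counts. Against the labelled control the ratio was 7.76, with a log2 interval of 0.87 to 6.12 that did not pass the limit. *Sufu* (chromosome 19, 46396918 to 46486660, plus strand), which holds Gli proteins in the cytoplasm, had 55, 85 and 53 counts (0.924, 1.25 and 0.863 RPKM). Its log2 ratio was 0.44 in the labelled eKO library against the labelled control (-0.06 to 0.96) and -0.54 in the rLif library against the labelled eKO library (-1.06 to -0.03), so it was not called.

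*Nr2f2* (chromosome 7, 70351950 to 70366746, minus strand) had 1289 counts in the labelled control, 3503 in the labelled eKO library and 1733 in the rLif library, or 10.5, 25.0 and 13.7 RPKM. It rose by 1.26 on the log2 scale in the labelled eKO library against the labelled control (1.16 to 1.35), a 2.39-fold difference. In the rLif library it was 0.87 lower than in the labelled eKO library (log2 ratio -0.87, -0.96 to -0.79), which did not reach the limit, and 0.38 higher than in the labelled control (0.28 to 0.49). *Nr2f2* was therefore highest where *Ihh* was lowest.

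In the labelled eKO library against the labelled control, 2 of 9 members were called, *Nr2f2* higher and *Ihh* lower, beside 17.2% of all 15694 genes tested. In the rLif library against the labelled eKO library, 2 of 9 were called, *Ihh* and *Hhip*, both higher, beside 15.6% of all genes. *Hhip* met the minimum for summed counts only through the rLif library, so its call there is not independent of that selection. In the rLif library against the labelled control, 1 of 9 was called, *Gli2*, beside 9.16% of all genes. These shares were close to the background, so the number of calls says nothing particular to the members. The median log2 ratio of the members was 0.47, -0.43 and 0.63 in the 3 comparisons, beside 0.01, -0.01 and 0.01 over all genes. Of all genes called in the last comparison, 647 were higher and 791 lower. With total counts as the library size the median of all genes moved to -0.16 there and to -0.12 in the rLif library against the labelled eKO library, and the called genes became 439 higher and 1031 lower.

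**Figure D2:**
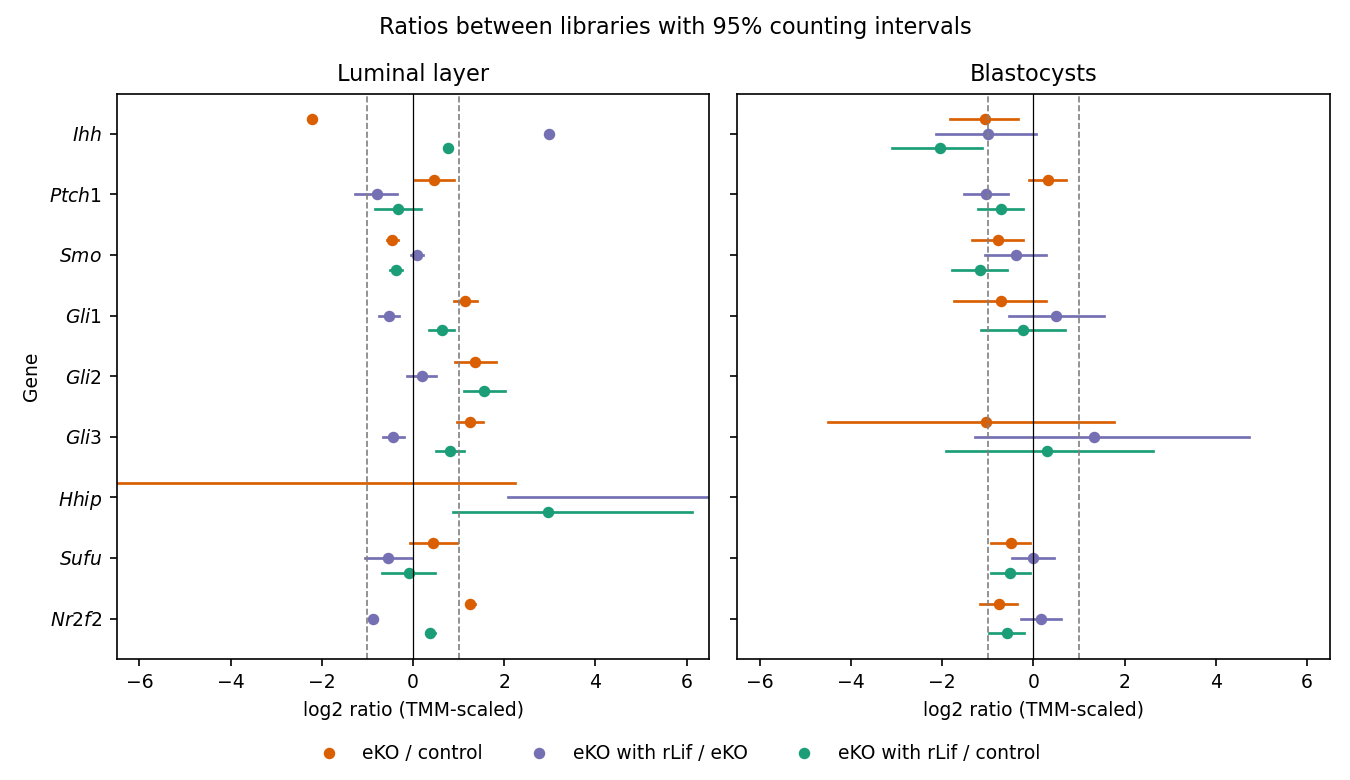
Log2 ratios of the 9 members between libraries of the luminal layer (left) and of blastocysts (right), with exact 95% counting intervals as lines. Dashed lines mark the 2-fold limit in each direction, *Hhip* intervals run off the panel where 1 library had 0 counts, and members under 10 counts in a tissue are not drawn. Luminal *Ihh* stands at -2.21, 2.99 and 0.78, and *Nr2f2* at 1.26, -0.87 and 0.38.

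*Ptch1*, the Gli genes and *Nr2f2* are known from the stroma, and stroma markers too were higher in the labelled eKO library than in the labelled control. The summed stroma level was 1.59-fold higher there, with 8 of 8 markers above the labelled control and 1 of 8 called (*Col3a1*). Much of that rise was *Col3a1*, at 227 and 501 CPM within sums of 729 and 1156 CPM. The log2 ratios of the 8 markers ranged from 0.05 to 1.14, with a median of 0.49. In the rLif library against the labelled eKO library, 8 of 8 stroma markers had a ratio below 0, whereas that of *Gli2* was 0.19. The luminal epithelium markers were 1.52-fold higher in sum, with 4 of 8 above the labelled control and 3 called higher (*Krt8*, *Krt19* and *Msx1*, which shares exon bases with its antisense gene *Msx1as*). The ratios were therefore computed again with each marker sum as the library size. This shifts the log2 ratio of every gene by the same amount. For labelled eKO against labelled control it was a shift down by 0.66 (stroma) and 0.60 (epithelium). A call lost or gained in this way is thus not particular to the member.

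With the stroma sum, *Nr2f2* was 0.59 higher in the labelled eKO library (0.50 to 0.69), and with the epithelium sum 0.65 higher (0.56 to 0.75), so the call was lost under either scaling while the sign remained. *Gli1* was 0.49 and 0.55 higher, *Gli2* 0.70 and 0.76, and *Gli3* 0.58 and 0.64 under the stroma and epithelium sums. *Ptch1* and *Sufu* changed sign, to -0.20 and -0.22 with the stroma sum, with intervals that held 0. *Smo* became -1.12 with the stroma sum, where it was called lower, and -1.06 with the epithelium sum, where it was not. *Ihh* remained called under both. For the rLif library against the labelled eKO library, *Gli1* and *Gli3* became 0.07 and 0.16 with the stroma sum, and *Nr2f2* became -0.28. The part that cell make-up had in these ratios was not tested.

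**Figure D3:**
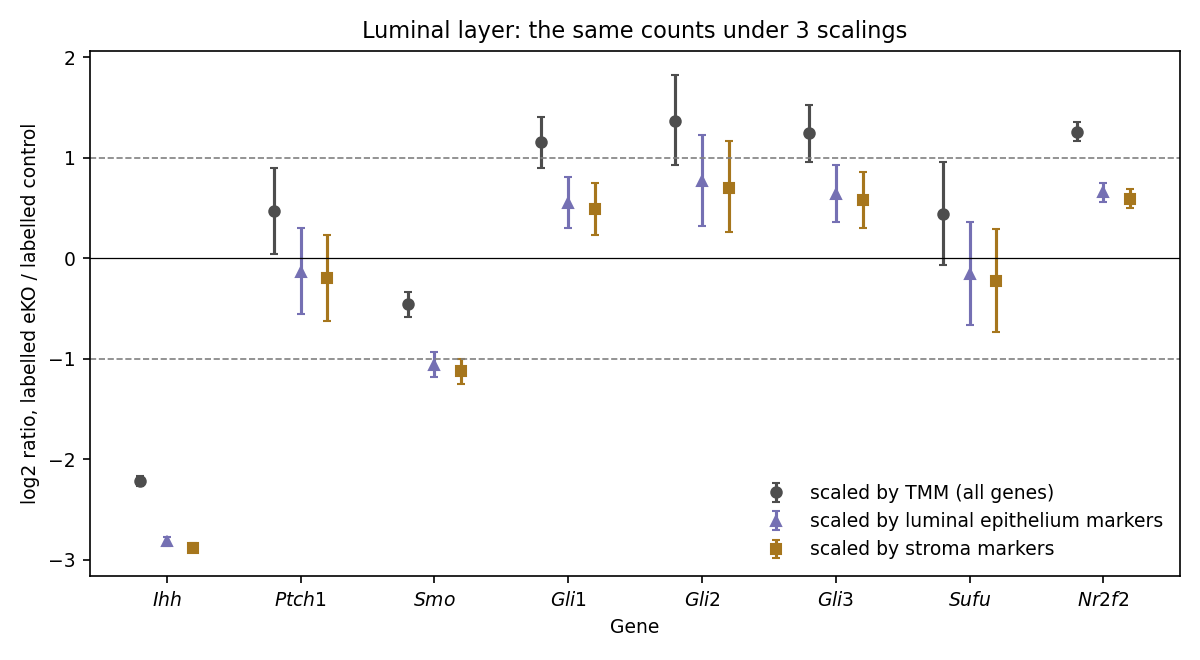
Log2 ratio of the labelled eKO library to the labelled control in the luminal layer for 8 members (*Hhip* had too few counts), from the same counts under 3 scalings: all genes by TMM, the sum of 8 luminal epithelium markers, and the sum of 8 stroma markers. Bars are 95% counting intervals and dashed lines the 2-fold limit. Each marker sum shifts all genes by the same amount. *Nr2f2* goes from 1.26 to 0.65 and 0.59, and *Ptch1* and *Sufu* cross 0, while *Ihh* stays called lower.

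The wider pathway was described by 7 lists of genes that are not members. Of all luminal genes, 17.2% were called in the labelled eKO library against the labelled control. The shares were 15.6% for rLif against labelled eKO and 9.16% for rLif against labelled control. Calls in such short lists are to be read only beside these shares. Among the other ligands and the genes for ligand release, *Shh* had 0 counts in all 6 libraries and *Dhh* had 1, 6 and 3 in the luminal libraries, so that *Ihh* was the ligand with the highest level per length in each luminal library. Of 7 such genes, 5 passed the filter. In the labelled eKO library against the labelled control, *Disp1*, which releases the lipid-bound ligand, fell by 1.42 (593 to 252 counts), and *Scube2*, a secreted partner in release, rose from 0 to 32 counts, at least 9.38-fold. In the rLif library *Scube2* fell to 2 counts.

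Co-receptors that help ligands reach Ptch1 were mostly higher in the labelled eKO library, with 5 of 6 above the labelled control and a median log2 ratio of 1.06, in the library in which the stroma sum was 1.59-fold higher. *Lrp2*, an endocytic receptor, was the 1 that was called, with 4929, 12913 and 7243 counts in the labelled control, labelled eKO and rLif libraries (log2 ratio 1.20, 1.16 to 1.25). *Gas1*, a hedgehog-binding surface protein, had 414, 1011 and 274 counts and fell by 1.74 in the rLif library against the labelled eKO library.

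Among 11 genes of the primary cilium and of Smo control, 1 was called higher and 2 lower in the labelled eKO library against the labelled control, with a median of -0.45. *Ift172*, an intraflagellar transport gene, rose by 1.52, *Kif3a*, a motor subunit needed to build cilia, fell from 3924 to 1573 counts, and *Gpr161*, a ciliary receptor that opposes the pathway, fell by 2.69 from 34 to 6 counts. *Kif3a* rose by 2.23 in the rLif library, from 1573 to 6671 counts. Of 10 kinases and ubiquitin ligase genes acting on Gli proteins, *Gsk3b* rose by 1.26, and *Spop* and *Dyrk2* fell by 1.73 and 1.51, in the labelled eKO library, and the list median was -0.22. *Gsk3b* shares 260 exon bases with *BC031361* on the opposite strand. *Dyrk2* rose by 1.56 in the rLif library.

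Of 8 genes known as hedgehog targets in mesenchyme, 6 passed the filter (*Foxf2* and *Foxl1* did not). In the labelled eKO library against the labelled control 0 of the 6 were called higher, 2 had a ratio above 0 (*Ccnd2*, 957 to 2196 counts, and *Bcl2*, 363 to 491 counts), and *Mycn*, a growth regulator, fell by 2.85, from 3191 to 505 counts. In the rLif library *Mycn* was at 544 counts, and *Ccnd2*, a cyclin gene, fell by 1.19 against the labelled eKO library (2196 to 873 counts). Against the labelled control, *Mycn*, *Ccnd1* and *Bmp4* fell in the rLif library by 2.60, 1.26 and 1.87, with 0 called higher. *Ccnd1* and *Bmp4* share some exon bases with other genes.

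The epithelial progesterone list, which held the progesterone receptor gene, its partners and progesterone-responsive epithelial genes, was split. *Cyp26a1*, which breaks down retinoic acid, had 136285, 2545 and 115011 counts in the labelled control, labelled eKO and rLif libraries, falling by 5.93 and rising by 5.64. *Areg*, an EGF-family ligand, had 1067, 236 and 7232 counts, falling by 2.36 and rising by 5.08. These followed the order of *Ihh* in falling and rising, whereas the calcium-binding protein gene *Calb1* went the other way with 13579, 175456 and 30828 counts, rising by 3.51 and falling by 2.37. The receptor gene *Pgr* (594, 1736 and 928 counts) and *Gata2*, a factor known upstream of it (2356, 8115 and 2127 counts), were the remaining called genes, named after their values were seen, and rose by 1.36 and 1.60 in the labelled eKO library. *Ihh* was therefore low in the library in which *Pgr* was highest. The stroma sum was also 1.59-fold higher in that library than in the labelled control. Whether the *Pgr* and *Gata2* counts came from epithelium or stroma was not tested. *Sox17*, another known upstream factor of *Ihh*, had 27110, 48998 and 65587 counts and rose by 1.23 in the rLif library against the labelled control.

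Of the 7 stromal genes placed with or after *Ihh* and *Nr2f2*, *Egfr* alone was called in the labelled eKO library against the labelled control (338 to 1127 counts, 1.55 higher). The others ranged from -1.04 (*Bmp2*) to 0.34 (*Hoxa10*), and the list median was 0.00, beside the stroma sum that was 1.59-fold higher. *Hand2*, a stromal factor that restrains growth factor signals, had 398, 411 and 567 counts. No gene of this list was called in the rLif library against either of the others by the size rule.

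**Figure D4:**
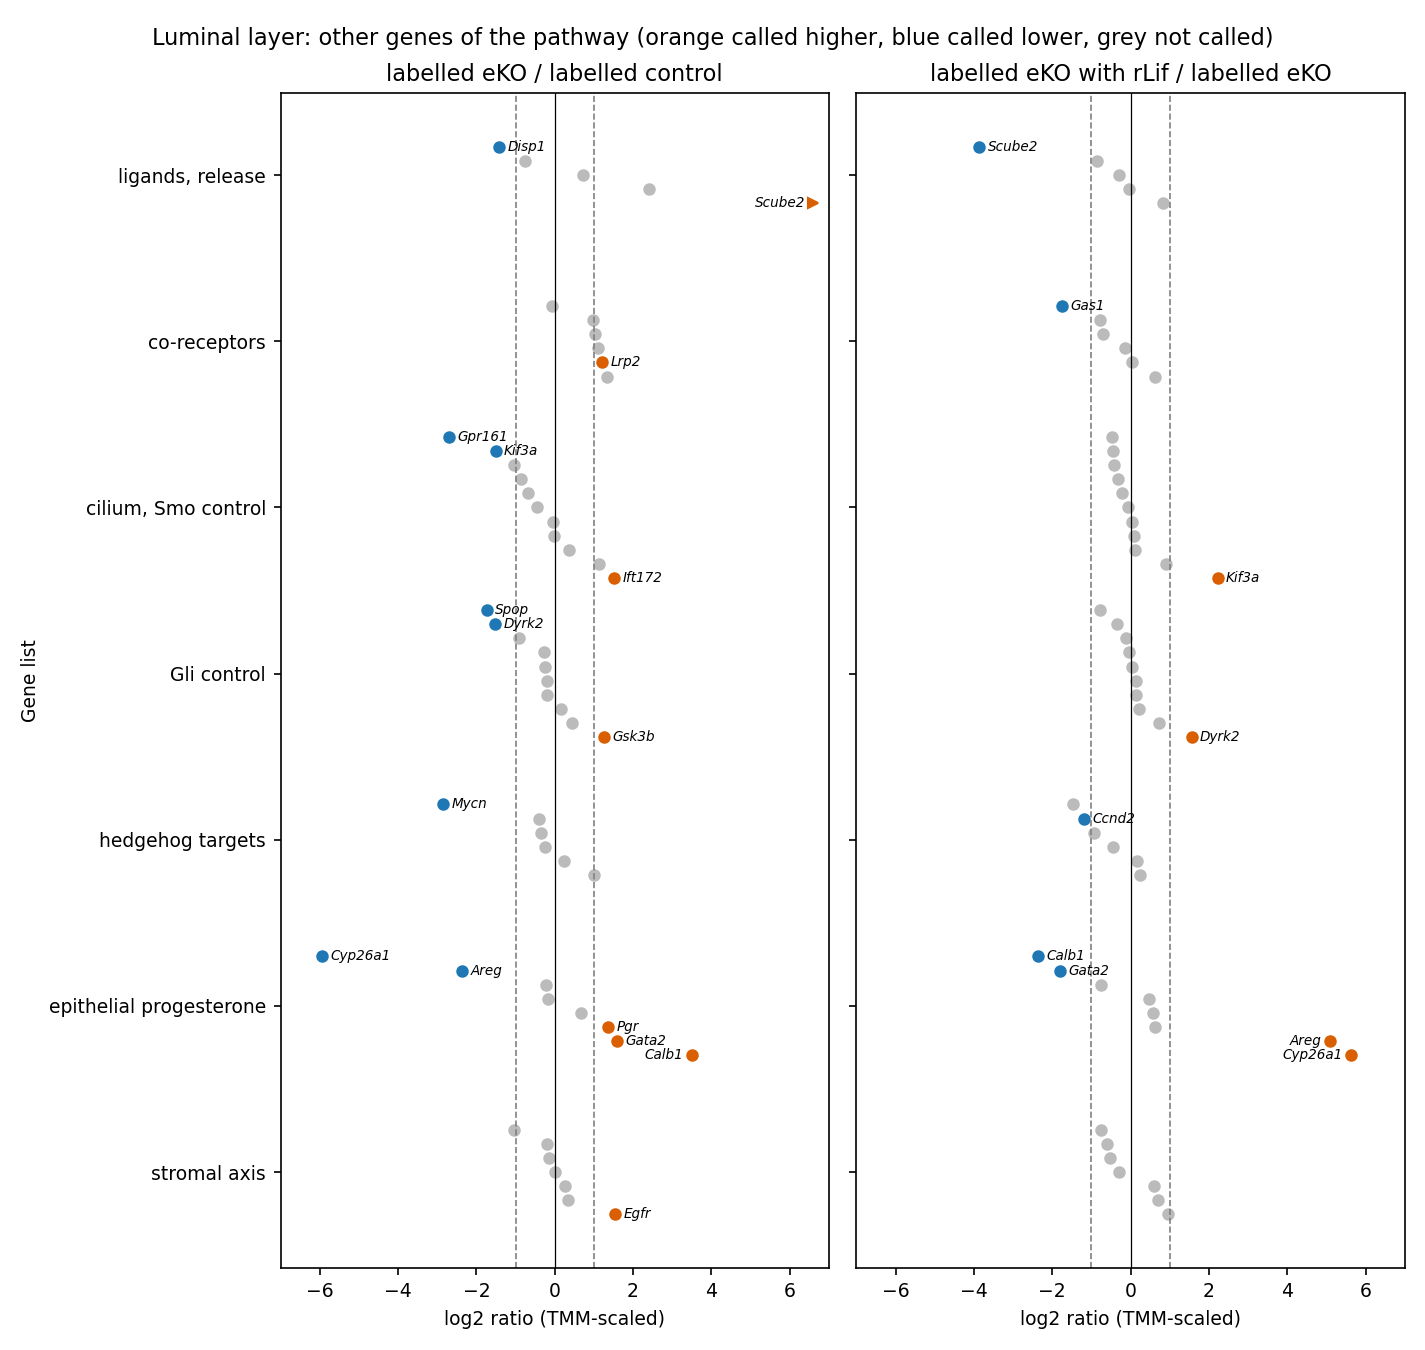
Log2 ratios in the luminal layer for the genes of 7 further lists that had at least 10 counts, in the labelled eKO library against the labelled control (left) and in the rLif library against the labelled eKO library (right). Orange and blue mark genes called higher and lower, grey the rest, dashed lines the 2-fold limit, and the arrowhead a gene with 0 counts in the labelled control. *Cyp26a1* and *Areg* lie far left in the left panel and far right in the right panel, *Calb1* the reverse.

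In blastocysts the members were at low levels. Of the 9 members, 7 had at least 10 counts over the 3 libraries, and *Gli2* (0, 4 and 0 counts from control, eKO and rLif-treated uteri) and *Hhip* (0, 2 and 0) did not. *Ihh* had 49 counts in blastocysts from control uteri, 24 in those from eKO uteri and 12 in those from rLif-treated eKO uteri (1.05, 0.502 and 0.253 RPKM). It fell by 2.06 in blastocysts from rLif-treated uteri against control uteri (-3.10 to -1.13). The other ratios were -1.07 for eKO against control (-1.83 to -0.33) and -0.99 for rLif against eKO (-2.13 to 0.06), neither of them past the limit. *Ihh* thus had its lowest level with rLif in blastocysts and its highest with rLif in the luminal layer.

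The receptor and transducer were at similar low levels. *Ptch1* had 92, 117 and 57 counts (1.12, 1.39 and 0.681 RPKM), lowest in blastocysts from rLif-treated uteri, and *Smo* had 77, 46 and 35 counts (1.02, 0.592 and 0.453 RPKM), highest in those from control uteri. For *Ptch1* the log2 ratio of rLif to eKO was -1.03 (-1.51 to -0.56), and for *Smo* that of rLif to control was -1.17 (-1.79 to -0.57), intervals that crossed the limit. *Sufu* was the member with the highest level per length, with 114, 83 and 82 counts (2.53, 1.80 and 1.79 RPKM). *Gli1* had 24, 15 and 21 counts, beside 629, 670 and 647 for *Arhgap9*, with which it shares exon bases, and *Gli3* had 4, 2 and 5. Neither Gli gene differed beyond counting error in any of the comparisons. *Nr2f2* had 140, 85 and 95 counts (1.51, 0.893 and 1.00 RPKM), and the log2 ratio of eKO to control was -0.76 (-1.16 to -0.36).

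For blastocysts from eKO against control uteri, 0 of 7 members were called, beside 3.15% of all 14873 genes. For rLif-treated against eKO uteri, 0 of 7 were called, beside 3.75%, and for rLif-treated against control uteri 1 of 7, *Ihh*, beside 4.94%. The median log2 ratios of the 7 members were -0.76, -0.01 and -0.59, with -0.003, -0.01 and -0.01 over all genes.

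Some genes known from the uterus had the order of *Ihh* in these blastocyst libraries and others did not. The summed level of the uterine stromal list was 14.2 CPM in blastocysts from control uteri, 5.32 in those from eKO uteri and 3.65 in those from rLif-treated uteri. Of its 7 genes 6 passed the filter, and 5 of these were below the control in blastocysts from eKO uteri and 5 in those from rLif-treated uteri. Within it, *Hoxa10* had 48, 17 and 6 counts, and *Hoxa11*, which shares exon bases with its antisense gene *Hoxa11as*, had 24, 10 and 1. *Egfr* alone held 117, 33 and 5 of the 271, 104 and 71 counts of this list. *Bmp2* (7, 20 and 25 counts) and *Vcan*, a matrix proteoglycan gene (18, 0 and 16 counts), did not have that order. The epithelial keratin gene *Krt19* had 1401, 241 and 108 counts, whereas *Lpar3*, a lysophosphatidic acid receptor gene of the same list, had 12, 27 and 26, *Calb1* had 49, 201 and 18, and the glandular marker *Aldh1a1* had 17, 58 and 18. The 8 stroma markers summed to 161, 165 and 154 CPM, but 7 of them, without *Pdgfra*, which primitive endoderm also expresses, summed to 37.4, 19.1 and 13.8 CPM. That last sum was added after the data were seen. Whether the *Egfr*, *Krt19* and other counts named here came from the embryo or from uterine RNA was not tested.

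The embryo's own markers were present in each blastocyst library, with summed levels of 2746, 2985 and 3037 CPM for 5 trophectoderm markers, 487, 490 and 668 for 3 inner cell mass markers, and 1224, 1295 and 1161 for 4 primitive endoderm markers. The immune markers, at 57.7, 118 and 20.0 CPM, and the glandular markers, at 7.19, 6.09 and 2.26 CPM, were also lowest in the library from rLif-treated uteri. *Foxa2* alone gave 103, 61 and 26 of the 137, 119 and 44 glandular counts. The smooth muscle markers were at 4.14, 4.55 and 3.04 CPM. The endothelium markers, with counts for 3 of 5 genes in each library, were highest there, at 69.3, 69.7 and 94.6 CPM. The inner cell mass markers were highest there too. The luminal epithelium markers differed little, at 6916, 7266 and 6876 CPM. In the luminal layer itself they were at 5192, 7878 and 5533 CPM, so their sum does not tell uterine from embryonic RNA. The embryo's own part in the endothelium sum was not tested. The part of uterine RNA in the low *Ihh* and *Nr2f2* counts of blastocysts was not tested.

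**Figure D5:**
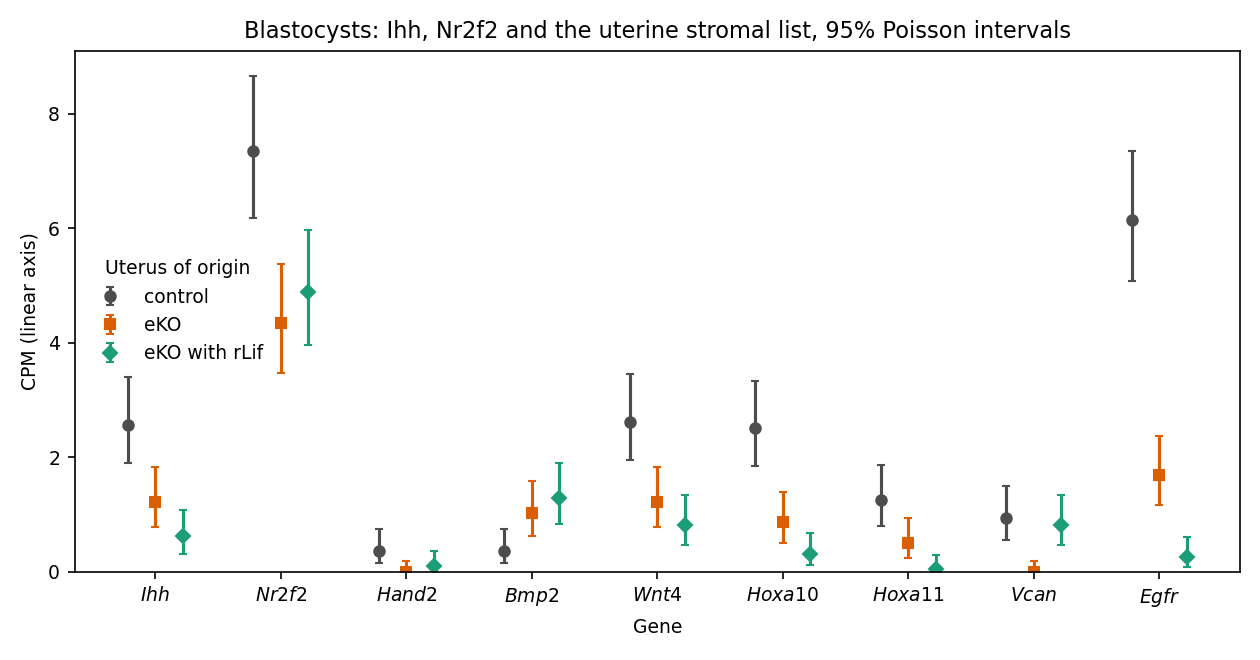
Levels of *Ihh*, *Nr2f2* and the 7 genes of the uterine stromal list in blastocysts, in CPM on a linear axis, by the uterus of origin, with 1 point per pooled library and exact 95% Poisson intervals. *Ihh*, *Nr2f2*, *Hoxa10*, *Hoxa11*, *Wnt4* and *Egfr* were highest in blastocysts from control uteri, whereas *Bmp2* was lowest there.

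Of the remaining pathway genes, *Dhh* was the hedgehog ligand with the highest level per length in blastocysts, with 188, 113 and 129 counts (4.17, 2.44 and 2.80 RPKM) and no call. *Scube3* rose from 2 to 21 counts in blastocysts from eKO uteri against control uteri and fell to 1 count with rLif. The co-receptor gene *Boc* fell from 40 to 8 counts, *Dyrk2* from 106 to 27 and *Ccnd2* from 159 to 60 for eKO against control uteri. *Dyrk2* was the gene of these lists that was called lower both in the luminal library labelled eKO and in blastocysts from eKO uteri, named after its values were seen, but in blastocysts it stayed at 26 counts with rLif. *Gpc3*, a surface proteoglycan that binds hedgehog ligands, had 81, 31 and 8 counts and fell by 3.37 for rLif-treated against control uteri.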

How the data were processed

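Libraries were prepared by the authors with the SMART-seq v4 kit, 1 per group, from pooled RNA of microdissected luminal layer or of flushed blastocysts. Per the submitters' processing notes, they aligned reads to GRCm38/mm10 with HISAT2 and counted them per gene with featureCounts (Subread 2.0.0). The deposited values were whole-number counts per gene, 1 table per tissue, not normalized, although the study's methods describe them as RPKM. The deposited tables also held each gene's exon positions and its exon length in bases, which has no other unit and was used for RPKM and for gene coordinates. The annotation release and the strand and multimapping settings are not given in the sources used here.

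Groups came from the sample labels. A gene was kept where its 3 libraries of that tissue had 10 or more counts in sum (15694 luminal, 14873 blastocyst). TMM scaling was done in edgeR 4.0.16 under R 4.3.3, separately for the 2 tissues, and CPM and RPKM were computed with the scaled sizes in Python 3.11.15. Ratios have exact 95% Clopper-Pearson intervals and levels exact Poisson intervals (scipy 1.17.1). They cover counting error alone, as PCR copies could not be recognised without molecular identifiers. A gene was called when the interval lay wholly beyond a log2 ratio of 1. It compares 2 libraries, not 2 conditions, and what the pooled animals share cannot be separated from the group.

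Folds against 0 counts were computed as if that library had 3. The members and the 17 gene lists (members, 7 pathway lists, 9 marker lists) were chosen with earlier results of these data known. Genes named from a list were at most 3 per list and comparison, those called with the interval bound farthest beyond the limit, plus genes at 0 in all libraries, and other genes named are said to have been chosen afterwards or are given as values beside a result. Alternatives were RLE scaling, total counts, marker sums as library size, other count minimums, a 1.5-fold limit, and edgeR's exact test at an assumed dispersion of 0.1 with the study's limits on fold and false discovery, from which only calls are used. *Cxcl15* and *Adgre1* were not found under these symbols and were not used here. RefSeq promoter windows (GRCm38.p6) were matched by symbol. Some genes of the lists are not reported here.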

Additional observations from a re-analysis of the deposited data

Results flagged for a closer look

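For 3 results the luminal layer and the blastocysts moved in opposite directions under the same contrast, each tissue having 1 library per group. *Nr2f2* had a log2 ratio of 1.26 in the luminal library labelled eKO against the one labelled control and of -0.76 in blastocysts from eKO against control uteri. In the rLif-treated against the control libraries, *Nr2f2* had 0.38 in the luminal layer and -0.59 in blastocysts, and *Ihh* had 0.78 and -2.06. The difference between the tissues was not tested in any of these cases, since there are no replicates. The blastocyst values rest on 140, 85 and 95 counts of *Nr2f2* and on 49, 24 and 12 counts of *Ihh*. In the same libraries some uterine genes had the order of *Ihh* (*Hoxa10* with 48, 17 and 6 counts) and others did not (*Calb1* with 49, 201 and 18, *Bmp2* with 7, 20 and 25, *Vcan* with 18, 0 and 16).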

How the results depend on the processing

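No member's direction turned among called values. With a 1.5-fold limit, 5002, 4298 and 3124 luminal genes were called (labelled eKO against control, rLif against eKO, rLif against control) and 916, 1229 and 1414 blastocyst genes, with 5 luminal members in the first comparison and 3 in the third. With edgeR's exact test at an assumed dispersion of 0.1, the counts were 1250, 1109 and 342 luminal and 65, 58 and 124 blastocyst genes, with 1 luminal member in the first comparison (*Ihh*), 0 in the third, and 0 in blastocysts from rLif-treated against control uteri. *Nr2f2*, *Gli2* and blastocyst *Ihh* thus lost their calls there. A minimum of 50 counts left 209, 325 and 447 blastocyst genes, and 1 luminal member in rLif against eKO, since *Hhip* no longer passed. With total counts as library size, 0 members were called in luminal rLif against control. RLE scaling changed no call of a member in any comparison. With marker sums as library size, *Nr2f2* lost its call in the labelled eKO library and *Smo* gained one (stroma sum). Such a scaling shifts all genes by the same amount.

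No paired analysis was possible because each group is 1 library. For the same reason no library was left out, and the spread between animals is unknown. *Hhip*, with 2, 0 and 16 luminal counts, has no finite ratio to the labelled eKO library. Its log2 interval for rLif against control spans 0.87 to 6.12, so the size of that difference was poorly bounded at this depth. For *Gli3* in blastocysts, with 4, 2 and 5 counts, each interval held 0. Those intervals were too wide to show either a difference or its absence. The library labelled eKO enters every ratio made with it, so those ratios share its sampling error.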
